A study of Equus caballus with 45 samples.

Results

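The complement components and regulators described here are genes of the first steps of complement activation: the C1q chains C1QA, C1QB and C1QC, the C1 proteases C1R and C1S, C2, the central component C3, factor B (CFB) and the C1 inhibitor SERPING1. They were found by their symbols in the deposited count tables, each of which lists 20881 genes. Of the 9 listed genes 7 were found, C1QB, C1QC, C1R, C1S, C2, CFB and SERPING1. C1QA and C3 were not among the symbols and were not analysed here.

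The series measured RNA of equine bone marrow mesenchymal stromal cells (MSC) and of 3 kinds of joint cell in 45 libraries. MSC of 3 donor horses (PC, 99 and 92) were left untreated, exposed for 2 h to the TLR3 agonist poly I:C or to the STING agonist 2′3′-cGAMP, or treated with CpG, with 1 library per donor and condition. Per the methods, MSC given poly I:C or 2′3′-cGAMP were then washed, and their RNA was taken after 24 h in fresh medium. Synoviocytes (from synovium of the femoropatellar joint), chondrocytes and macrophages (grown from blood monocytes in 30 ng/mL of M-CSF for 5 days) received the cytokines IL-1β and TNF-α and then conditioned medium of untreated MSC (resting MSC-CM), of TLR3 agonist treated MSC (TLR-MSC-CM) or of STING agonist treated MSC (STING-MSC-CM), in each case from donors PC, ORC and AG1. Each joint cell type also had 1 library with the cytokines alone and 1 with no addition. The labels give 10 ng/mL for both agonists where the methods give the same figure in µg/mL. They give 20 ng/mL of each cytokine for synoviocytes and 10 ng/mL for macrophages where the methods give 20 ng/mL, and the methods treat chondrocytes as synoviocytes. The media stayed on the cells for 24 h, and RNA was collected after a further 24 h in fresh medium. The dose and time of CpG are not given in the sources used here.

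Each joint cell type came from 1 horse, so the 3 replicates of each medium vary by the horse that gave the MSC and not by the horse that gave the joint cells. Their p-values measure the spread between media, which also holds that of cultures and libraries. This applies to the comparisons of cell types too, where no spread between horses of the joint cells enters. Library totals ran from 23525704 to 54103873 counts, and 3 counts, taken as the floor of detection, corresponded to 0.0554 to 0.128 CPM, the gene's count scaled to a common library total. CPM are not divided by gene length, so levels are compared between samples of a gene and not between genes. In bulk RNA, fewer cells of a type and less RNA per cell cannot be told apart.

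The cell types were checked by marker genes. The 12 macrophage markers summed to 15202 to 18549 CPM in the 11 macrophage libraries, against at most 631 CPM in MSC, 146 CPM in synoviocytes and 172 CPM in chondrocytes. PTPRC, the pan-leukocyte antigen, was at most 0.239 CPM outside macrophages. The macrophage libraries also held 269 to 492 CPM of 5 T cell markers and 262 to 591 CPM of the neutrophil markers, whose part in the macrophage levels below was not tested. Chondrocytes had 6.12 to 101 CPM of ACAN and 15.6 to 170 CPM of COMP, both above every other cell type. However, COL2A1, the defining collagen of cartilage, was at most 0.368 CPM in them and COL9A1 was at or below the floor. The 8 chondrocyte markers summed to 158 to 766 CPM in chondrocytes, 222 to 874 CPM in MSC and 146 to 338 CPM in synoviocytes. These ranges overlap. Synovial fibroblast markers summed to 67997 to 83665 CPM in synoviocytes and 41589 to 74586 CPM in chondrocytes, also with overlap. MSC markers, at 957 to 2133 CPM in MSC, overlapped every joint cell type.

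Complement is a cascade of plasma proteases that tags surfaces for uptake and calls in leukocytes. In the classical pathway the recognition molecule C1q carries the proteases C1r and C1s, and C1s cleaves C4 and C2 to build the convertase that splits C3. In the alternative pathway factor B takes the place of C2, and the C1 inhibitor, a serpin, removes active C1r and C1s. Most of these proteins are made in the liver, C1q mainly by macrophages, and fibroblast-like and cartilage cells make several of them locally in the joint. Interferons are known inducers of several of these genes.

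C1QB and C1QC, 2 of the 3 chains of C1q, were read in macrophages alone among the cell types measured. Both had 0 counts in all 12 MSC libraries, all 11 synoviocyte libraries and all 11 chondrocyte libraries, where the floor allows up to 0.122 CPM in any of these libraries. In the 11 macrophage libraries C1QB ran from 10.8 to 48.6 CPM with a median of 22.8 CPM, and C1QC from 13.2 to 55.9 CPM with a median of 32.8 CPM. In resting MSC-CM the C1QB mean of macrophages, 21.1 ± 9.91 CPM (SD, n = 3), was at least 205-fold higher than synoviocytes and at least 213-fold higher than chondrocytes, both set at a floor of 3 counts per library. For C1QC, at 24.7 ± 10.2 CPM (SD, n = 3), the bounds were 240-fold and 249-fold. Both genes entered the fit across cell types through macrophage counts alone. The edgeR quasi-likelihood test (adjusted p between 1.77e-05 and 3.15e-05 in both comparisons) therefore adds nothing to the 0 counts. The count of C1QC over that of C1QB stayed between 0.979 and 1.49 across macrophage libraries, and the genes lie next to each other on chromosome 2 of the RefSeq TB-T2T assembly, followed by C1QA.

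**Figure D1:**
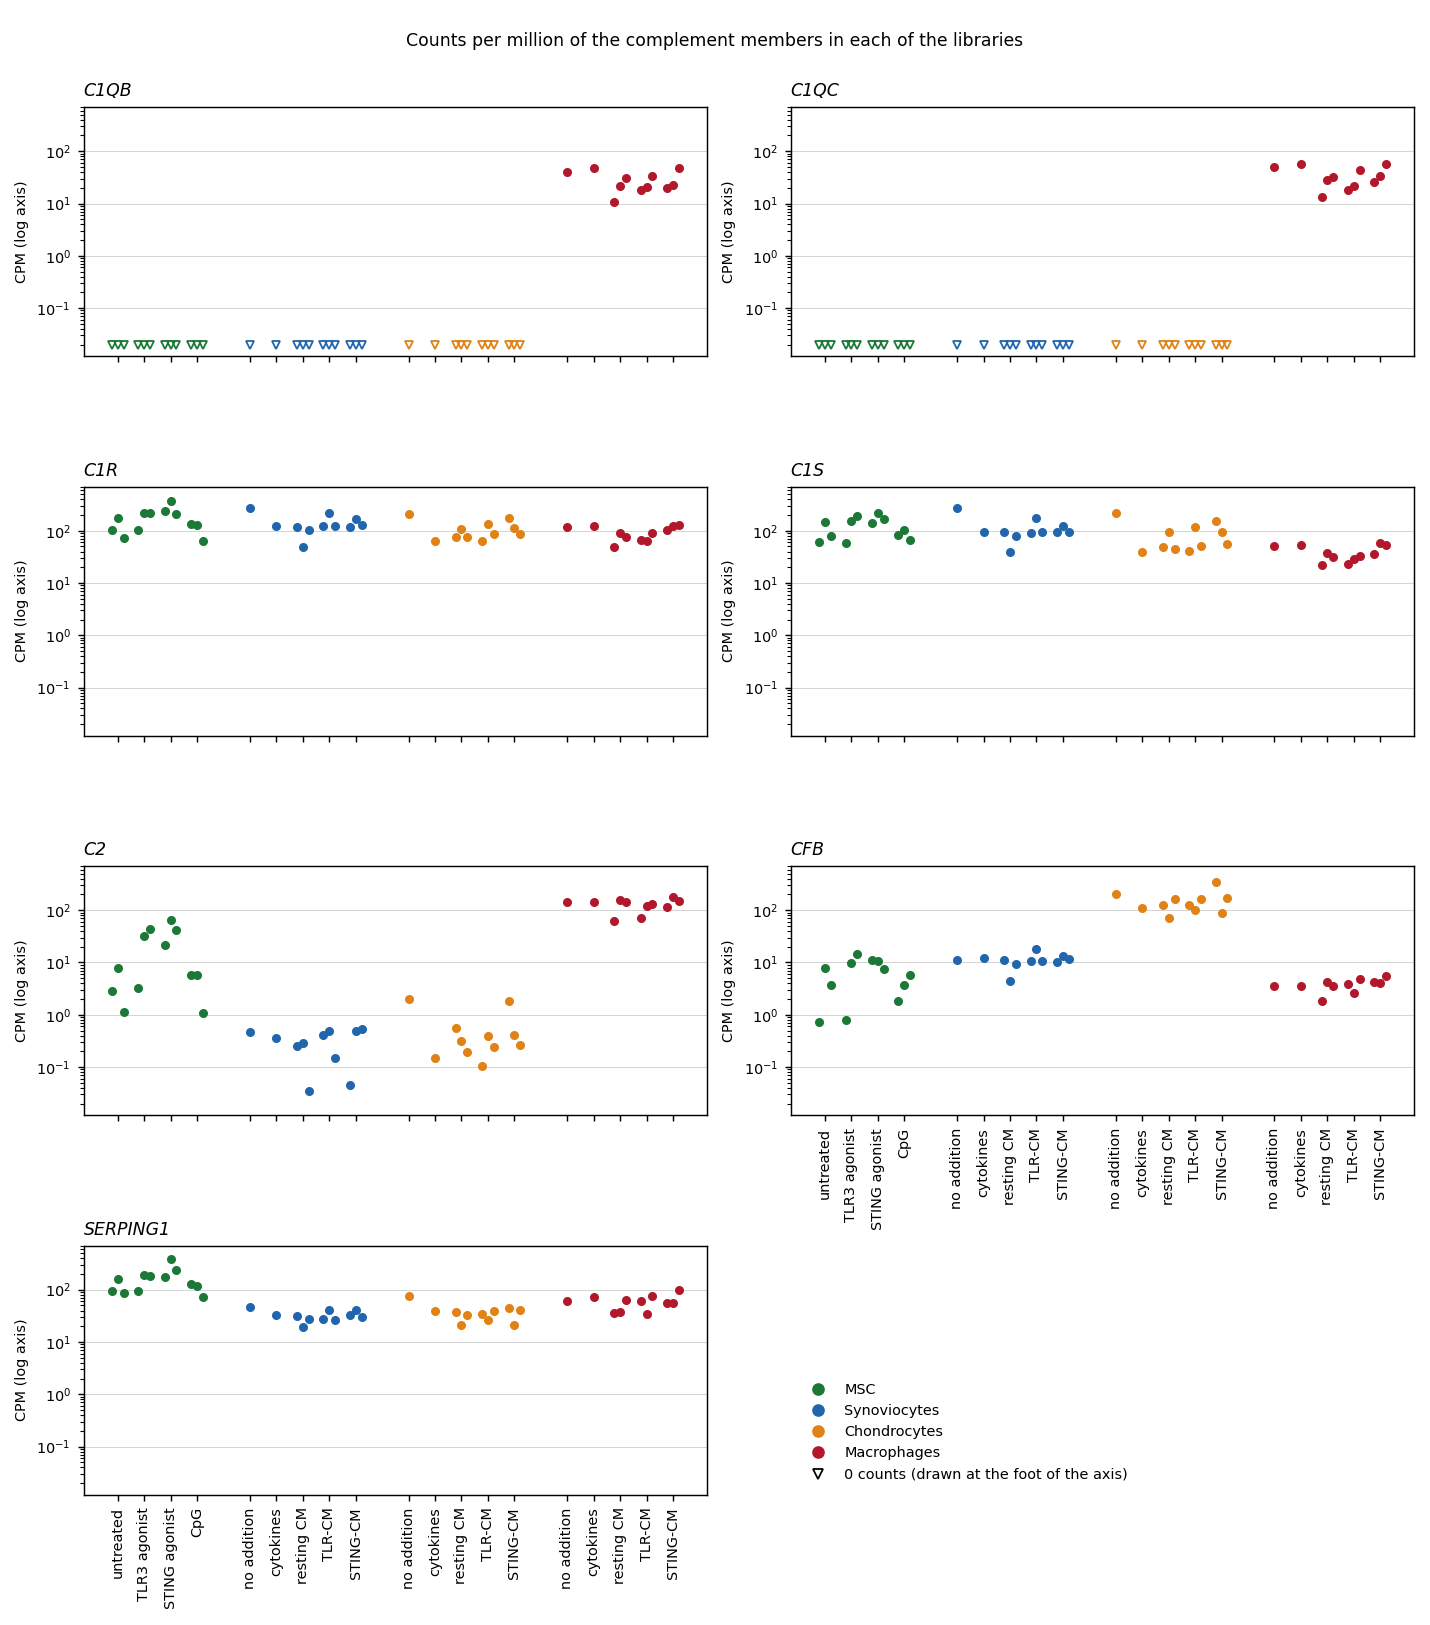
CPM (log axis) of the 7 genes in each of the 45 libraries, 1 point per library, grouped by condition and coloured by cell type. Open triangles mark libraries with 0 counts. C1QB and C1QC were counted only in macrophages, C2 was at least 62.0 CPM in every macrophage library and at most 1.97 CPM in every synoviocyte and chondrocyte library, and CFB was at least 70.5 CPM in every chondrocyte library.

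C2 and CFB, the homologous proteases of the classical and the alternative pathway, are neighbours on chromosome 20 of the same assembly. C2 was highest in macrophages and CFB in chondrocytes. With resting MSC-CM, C2 was 62.0, 155 and 144 CPM in macrophages (media of AG1, ORC and PC), 0.253, 0.294 and 0.0344 CPM in synoviocytes (8, 8 and 1 counts) and 0.561, 0.318 and 0.195 CPM in chondrocytes (21, 8 and 6 counts). The macrophage libraries lay above all others. C2 was higher in macrophages than in synoviocytes by 9.23 on the log2 scale (SE 0.54, adjusted p = 8.70e-08) and than in chondrocytes by 8.32 (SE 0.50, adjusted p = 1.03e-07, edgeR quasi-likelihood test). Chondrocytes and synoviocytes did not differ beyond their spread (log2 difference 0.91, SE 0.86, adjusted p = 0.524).

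CFB was 124, 70.5 and 166 CPM in chondrocytes with resting MSC-CM of AG1, ORC and PC, 11.2, 4.52 and 9.23 CPM in synoviocytes and 1.81, 4.17 and 3.56 CPM in macrophages. No value of one cell type reached into the range of another. Chondrocytes exceeded synoviocytes by 3.83 on the log2 scale (SE 0.42, adjusted p = 1.65e-04, edgeR quasi-likelihood test), the only gene of the 7 called between these cell types, where 18.1% of all 15599 genes tested were called. Macrophages had less CFB than chondrocytes (log2 difference -5.28, SE 0.46, adjusted p = 1.92e-06) and less than synoviocytes (-1.45, SE 0.43, adjusted p = 0.0113). The last call rested on the synoviocyte library with AG1 medium and was lost without it (adjusted p = 0.0505).

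**Figure D2:**
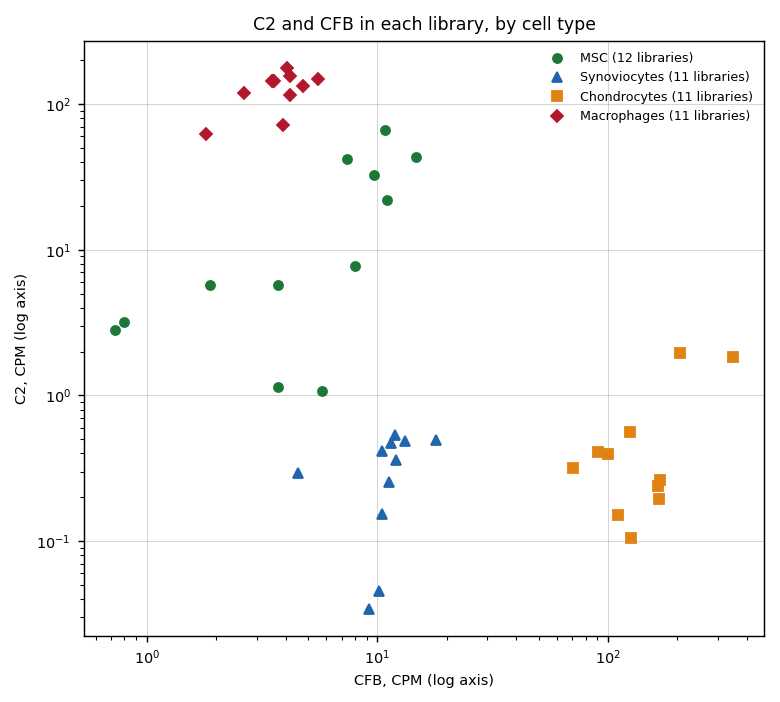
CPM of C2 against CPM of CFB in each library, both on log axes, with a symbol for each cell type. Macrophages lie at high C2 and low CFB, chondrocytes at low C2 and high CFB, synoviocytes at low C2 with CFB between them, and MSC spread from 1.07 to 66.0 CPM of C2.

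The count of C2 over that of CFB was 18.5 to 45.4 in the 11 macrophage libraries and 0.186 to 6.12 in the 12 MSC libraries. In the libraries with more than 3 counts of C2 it was 0.0146 to 0.0650 in synoviocytes and 0.00118 to 0.00962 in chondrocytes. A further 2 synoviocyte libraries and 1 chondrocyte library had 1 to 3 counts of C2, too few for a ratio, so synoviocytes and chondrocytes could not be put in order. Gene lengths are the same in each cell type, so the ratio can be compared between them, but its value says nothing of which gene had more transcripts.

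C1R and C1S, the proteases of the C1 complex and neighbours on chromosome 6, were read in every library. C1R ran from 64.7 to 373 CPM in MSC, 48.5 to 266 CPM in synoviocytes, 62.4 to 208 CPM in chondrocytes and 48.1 to 131 CPM in macrophages. In resting MSC-CM its means were 89.5 ± 36.1, 85.5 ± 18.0 and 71.5 ± 21.6 CPM (SD, n = 3) in synoviocytes, chondrocytes and macrophages, and none of the 3 differences passed the test (edgeR adjusted p from 0.345 to 0.916). C1S in macrophages was 22.0, 36.9 and 31.1 CPM, against 95.7, 38.6 and 78.5 CPM in synoviocytes and 48.9, 95.9 and 44.5 CPM in chondrocytes. It was lower in macrophages than in synoviocytes by -1.28 on the log2 scale (SE 0.38, adjusted p = 0.0114) and than in chondrocytes by -1.09 (SE 0.38, adjusted p = 0.0247). The first call was lost without the synoviocyte library of AG1 medium (adjusted p = 0.0524). The second was lost without the chondrocyte library of ORC medium (log2 difference -0.65, adjusted p = 0.101) or without the macrophage library of PC or AG1 medium (adjusted p = 0.0589 and 0.0912). The count of C1S over that of C1R was 0.345 to 0.468 in macrophages, below its range in each other cell type (lowest 0.556).

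SERPING1, the inhibitor of both proteases, was 36.6, 38.0 and 62.6 CPM in macrophages with resting MSC-CM, 31.2, 19.5 and 27.2 CPM in synoviocytes and 37.3, 20.9 and 33 CPM in chondrocytes. Macrophages lay above synoviocytes in every library (log2 difference 0.79, SE 0.27, adjusted p = 0.0240, edgeR quasi-likelihood test) and overlapped chondrocytes (0.58, SE 0.27, adjusted p = 0.0782, and 0.0240 with the MSC donor as a block). The call against synoviocytes was lost without the macrophage library of PC medium (adjusted p = 0.113) or the synoviocyte library of ORC or PC medium (adjusted p = 0.0894 and 0.0507). In MSC, which are in a table of their own and were not tested against joint cells, SERPING1 ran from 72.5 to 386 CPM. In all, 4 of the 7 genes were higher and 2 lower in macrophages than in synoviocytes, where 36.6% of all genes were called higher and 35.1% lower. Against chondrocytes 3 were higher and 2 lower, with 36.6% and 34.9% of all genes. Both counts of higher genes include C1QB and C1QC, which were tested through macrophage counts alone.

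In MSC the question was which of these genes the agonists moved. As a check of the treatment, MX1, an interferon-induced gene, was 6.79, 5.92 and 1.44 CPM in untreated MSC of donors 92, 99 and PC, 3.75, 477 and 629 CPM after the TLR3 agonist and 693, 927 and 546 CPM after the STING agonist. The library labelled TLR3 agonist of donor 92 was thus not raised in MX1.

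C2 was 2.84, 7.69 and 1.14 CPM in untreated MSC of donors 92, 99 and PC and 21.8, 66.0 and 42.0 CPM after the STING agonist. Every treated library lay above every untreated one, with folds within a donor of 7.69, 8.59 and 36.7. The log2 difference was 3.46 (SE 1.03, unadjusted p = 0.00899) and did not pass adjustment over all genes (adjusted p = 1.00, edgeR quasi-likelihood test). DESeq2 gave an adjusted p of 0.0231, and edgeR with the donor as a block 0.120. The exact permutation test gave p = 0.1, the smallest that 3 against 3 libraries allow.

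SERPING1 was 94.4, 157 and 87.3 CPM in untreated MSC and 174, 386 and 242 CPM after the STING agonist, without overlap (log2 difference 1.24, SE 0.42, unadjusted p = 0.0181, adjusted p = 1.00, and 0.115 with the donor block, edgeR). C1R was 102, 172 and 72.9 CPM in untreated and 240, 373 and 212 CPM in treated MSC, also without overlap (1.24, SE 0.44, unadjusted p = 0.0210, adjusted p = 1.00, and 0.124 with the block, edgeR). The exact permutation p was 0.1 for each. No member passed the adjusted threshold in the fit without a block, where 0% of all genes did and MX1 did not either. Neither that fit nor the permutation test used the pairing by donor, though libraries of the same donor deviated alike (median correlation 0.742). C1S was 59.7, 149 and 79.3 CPM in untreated and 139, 218 and 169 CPM in treated MSC, and CFB 0.724, 7.97 and 3.69 CPM and 11, 10.8 and 7.42 CPM. For both the groups overlapped. CFB of donor 92 stood out with a 15.1-fold difference, against 1.36-fold and 2.01-fold in donors 99 and PC.

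All 5 genes counted in MSC had higher values after the STING agonist than before it in each of the 3 donors, as did 15.2% of all genes tested. For 3 of the 5 the groups did not overlap, against 4.03% of all genes in that direction. Of the 5, 0 were called by edgeR at the adjusted threshold, where 0% of all genes were, 3 had an unadjusted p under 0.05 (1.69% of all genes in that direction) and DESeq2 called 1 (0.619% of all genes in that direction). With the donor as a block all 5 had an unadjusted p under 0.05, as had 5.54% of all genes in that direction. Leaving out donor 99 of the treated libraries took the SERPING1 difference to 0.82. The median log2 difference of the 5 was 1.24, beside 0.01 over all genes tested.

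**Figure D3:**
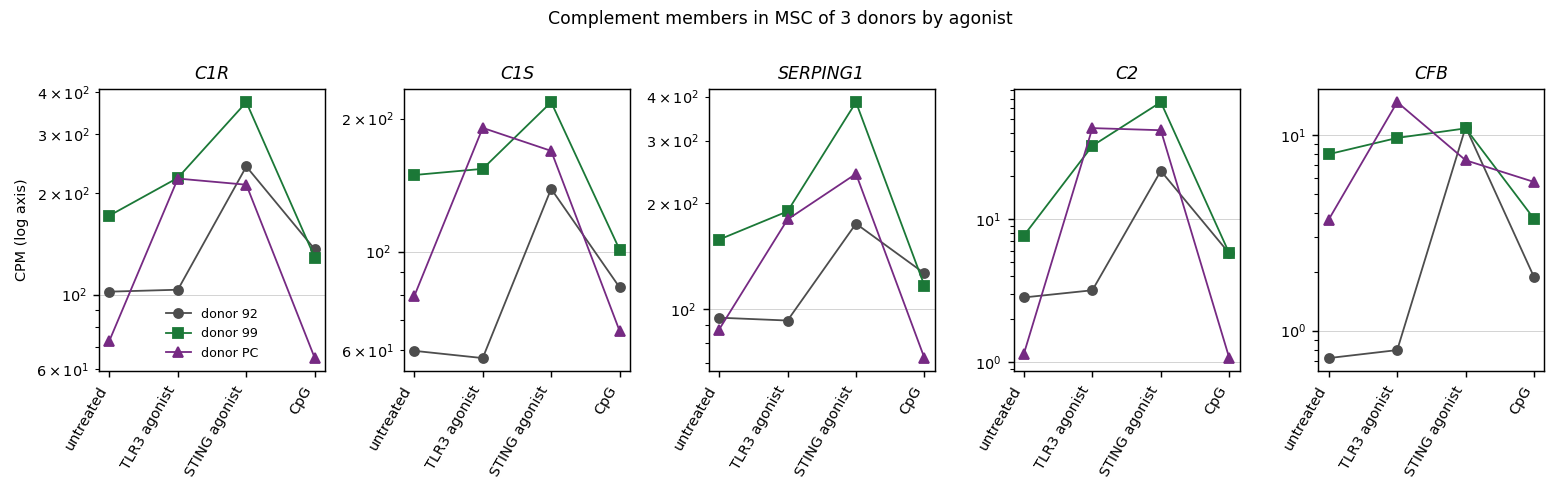
CPM (log axis, a separate scale for each gene) of the 5 genes counted in MSC, by agonist, with a line joining the 4 libraries of a donor. All 5 genes are higher after the STING agonist than in the untreated library in each donor, and donor 92 stays within 0.17 log2 units of its untreated library after the TLR3 agonist.

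After the TLR3 agonist the donors differed. C2 was 3.18, 32.7 and 43.4 CPM in donors 92, 99 and PC, and the group overlapped untreated MSC through donor 92, the library that was not raised in MX1. The log2 difference was 2.83 (SE 1.00, unadjusted p = 0.0211, adjusted p = 1.00, edgeR quasi-likelihood test), and 3.33 (SE 0.77, adjusted p = 0.398) without that library. C1R was 103, 222 and 221 CPM, C1S 57.5, 154 and 191 CPM, CFB 0.796, 9.65 and 14.7 CPM and SERPING1 92.7, 189 and 179 CPM. The median log2 difference of the 5 genes within a donor was 0.02 in donor 92, 0.28 in donor 99 and 1.60 in donor PC. Of the 5, 0 were called by edgeR or DESeq2 (0% and 0.323% of all genes). By edgeR 1 had an unadjusted p under 0.05 (1% of all genes in that direction). C1R, C2 and CFB, 3 of the 5, were higher in all 3 donors (6.11% of all genes). In donor 92, however, the 95% intervals of their counts overlapped those of the untreated library. Their differences in that donor thus lay within counting error. With the donor block 3 of the 5 had an unadjusted p under 0.05 (2.36% of all genes in that direction).

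The direct comparison of the agonists called 0 of the 5 genes by edgeR or DESeq2 (0% of all genes by edgeR), with 0 at an unadjusted p under 0.05 (0.242% of all genes). All 5 were higher after the STING than after the TLR3 agonist in donors 92 and 99, and 1 of 5, SERPING1, in donor PC. For donor 92 the TLR3 agonist library was the one not raised in MX1. SERPING1 had an exact permutation p of 0.3. After CpG the values differed from untreated MSC in no common direction. C2 was 5.76, 5.77 and 1.07 CPM, C1R 136, 129 and 64.7 CPM, C1S 83, 101 and 66.2 CPM, CFB 1.87, 3.72 and 5.74 CPM and SERPING1 126, 116 and 72.5 CPM in donors 92, 99 and PC. All 5 were higher than untreated in donor 92, 0 in donor 99 and 1 in donor PC, and 0 had an unadjusted p under 0.05 (0.305% of all genes).

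In synoviocytes the question was whether medium of activated MSC altered these genes beyond resting medium. C1R was 117, 48.5 and 103 CPM with resting MSC-CM of AG1, ORC and PC, 124, 214 and 121 CPM with TLR-MSC-CM and 117, 167 and 127 CPM with STING-MSC-CM. The ORC library with resting medium lay far below the other two. C1S was 95.7, 38.6 and 78.5 CPM, then 92.4, 173 and 95.6 CPM, then 93.1, 122 and 95.8 CPM, and CFB 11.2, 4.52 and 9.23 CPM, then 10.5, 17.9 and 10.5 CPM, then 10.2, 13.2 and 11.9 CPM. The same library was the lowest for both, and the ORC library with TLR-MSC-CM the highest.

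With TLR-MSC-CM the log2 differences were 0.75 for C1R (SE 0.27, unadjusted p = 0.0154), 0.74 for C1S (SE 0.28, unadjusted p = 0.0180) and 0.61 for CFB (SE 0.27, unadjusted p = 0.0385), each with an adjusted p of 0.494 by edgeR. With STING-MSC-CM they were 0.59 for C1R (SE 0.27, unadjusted p = 0.0475) and 0.39 for SERPING1 (SE 0.18, unadjusted p = 0.0458), each with an adjusted p of 0.634. Thus 0 of 5 genes were called in either comparison by edgeR or DESeq2 (0% of all genes by edgeR), with 3 of 5 and 2 of 5 higher at an unadjusted p under 0.05, where 4.94% and 3.65% of all genes were. With the MSC donor as a block these counts were 2 and 0 (3.81% and 2.81% of all genes). C1R was the 1 gene whose groups did not overlap, in both comparisons, with 6.25% and 8.62% of all genes in that direction. With STING-MSC-CM the groups met at 117 CPM, the value of both AG1 libraries, so that the gap between them lay within counting error. Without the ORC library of resting medium the C1R differences were 0.45 and 0.29.

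Within an MSC donor the median log2 difference over the genes with more than 3 counts in both libraries (4 or 5 of 5) with TLR-MSC-CM was 1.99 in ORC, 0.20 in PC and -0.05 in AG1. With STING-MSC-CM it was 1.55 in ORC, 0.29 in PC and -0.02 in AG1. MX1 was 5.05, 6.32 and 6.06 CPM with resting medium of AG1, ORC and PC, and 17.9 CPM with TLR-MSC-CM of ORC against 6.09 and 5.12 CPM with that of AG1 and PC. With STING-MSC-CM it was 8.32 CPM for ORC against 6.15 and 4.66 CPM for AG1 and PC. A link of MX1 with these genes was not tested. C2 was 0.0344 to 0.538 CPM in all synoviocyte libraries, 1 to 15 counts, too few to compare media.

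**Figure D4:**
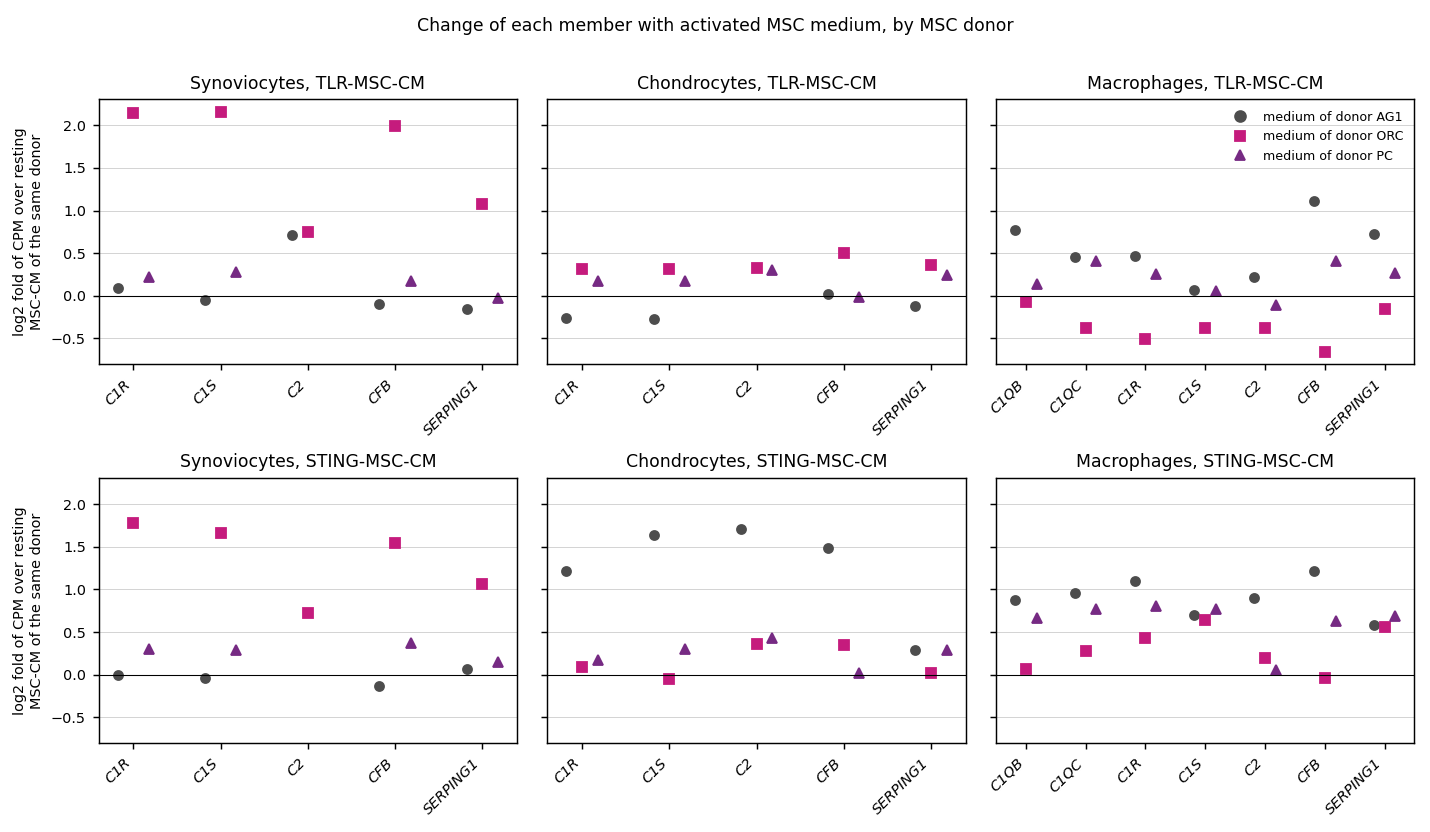
Log2 fold of CPM with TLR-MSC-CM (top) or STING-MSC-CM (bottom) over resting MSC-CM of the same MSC donor, for each gene and joint cell type, with 1 point per donor of the medium. Values with 3 or fewer counts in either library are left out. In synoviocytes the points of ORC stand above the rest, except for C2 with TLR-MSC-CM (0.74 in ORC and 0.72 in AG1). In chondrocytes with STING-MSC-CM those of AG1 do, except for SERPING1 (0.29 in AG1 and in PC). In macrophages with STING-MSC-CM nearly all points lie above 0.

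In chondrocytes CFB was 124, 70.5 and 166 CPM with resting MSC-CM of AG1, ORC and PC, 126, 99.8 and 165 CPM with TLR-MSC-CM and 350, 90.1 and 168 CPM with STING-MSC-CM. The library with STING-MSC-CM of AG1 had the highest CFB of all 45 libraries. C1R was 174 CPM in it against 113 and 85.2 CPM with STING-MSC-CM of ORC and PC, C1S 152 against 93.0 and 54.6 CPM and C2 1.84 against 0.409 and 0.263 CPM (77, 11 and 7 counts). SERPING1, at 45.6 against 21.2 and 40.3 CPM, stood apart least.

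MX1 was 39.1 CPM in the AG1 library and 1.01 to 3.59 CPM in the other 10 chondrocyte libraries. The median log2 difference of the 5 genes from resting medium of the same donor was 1.49 in AG1, 0.09 in ORC and 0.29 in PC. With STING-MSC-CM 4 of 5 genes were higher than with resting medium in all 3 donors (15.4% of all genes). Outside AG1 the folds of these 4 ran only from 1.01 (CFB, PC) to 1.35 (C2, PC, 7 against 6 counts). By edgeR or DESeq2 0 of 5 were called (0% of all genes), and 0 had an unadjusted p under 0.05 (0.909% of all genes). With the donor as a block 3 had one, C1R, C1S and CFB, with adjusted p of 1.00 each by edgeR, where 2.4% of all genes were higher at that threshold. With TLR-MSC-CM 0 of 5 were called (0% of all genes by edgeR) and 0 had an unadjusted p under 0.05 (0.559% of all genes). The medians within a donor, over genes with more than 3 counts in both libraries, were -0.19 in AG1, 0.33 in ORC and 0.18 in PC. STING-MSC-CM against TLR-MSC-CM gave 0 calls among the 5 in synoviocytes and in chondrocytes (0% of all genes by edgeR in each). At an unadjusted p under 0.05 there were 0, where 2.02% and 0.811% of all genes were.

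In macrophages C1R and C1S had higher values with STING-MSC-CM than with either other medium of the same donor. C1R was 48.1, 90.9 and 75.4 CPM with resting MSC-CM of AG1, ORC and PC, 66.7, 63.9 and 90.0 CPM with TLR-MSC-CM and 103, 123 and 131 CPM with STING-MSC-CM. The 3 libraries with STING-MSC-CM lay above the other 6 with MSC-CM. The single libraries without MSC-CM, at 120 CPM with no addition and 122 CPM with the cytokines alone, lay within the range of STING-MSC-CM. C1S was 22.0, 36.9 and 31.1 CPM, then 23.0, 28.5 and 32.4 CPM, then 35.7, 57.4 and 53.2 CPM, and the AG1 library with STING-MSC-CM lay within the resting range. For C1S the single libraries with no addition and with the cytokines alone, at 51.4 and 53.6 CPM, also lay within the range of STING-MSC-CM.

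Against resting medium the log2 difference of C1R was 0.72 (SE 0.23, unadjusted p = 0.00947) and that of C1S 0.69 (SE 0.24, unadjusted p = 0.0146), each with an adjusted p of 0.907 by edgeR. With the MSC donor as a block they were 0.75 (SE 0.14, adjusted p = 0.0425) and 0.69 (SE 0.09, adjusted p = 0.0131), so that the calls turned on the block. Against TLR-MSC-CM the differences were 0.73 for C1R (SE 0.23, unadjusted p = 0.00848, adjusted p = 0.727) and 0.84 for C1S (SE 0.24, unadjusted p = 0.00494, adjusted p = 0.726). With the block they were 0.73 (SE 0.14, adjusted p = 0.0275) and 0.82 (SE 0.09, adjusted p = 0.00539, edgeR). The exact permutation p was 0.1 for C1R in both comparisons, 0.2 for C1S against resting medium and 0.1 for C1S against TLR-MSC-CM.

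The other genes were within or closer to their spread. C1QB was 10.8, 21.8 and 30.6 CPM with resting MSC-CM, 18.5, 20.8 and 33.8 CPM with TLR-MSC-CM and 19.8, 22.8 and 48.6 CPM with STING-MSC-CM of AG1, ORC and PC. C1QC was 13.2, 28.0 and 32.8 CPM, then 18.1, 21.6 and 43.5 CPM, then 25.6, 34.0 and 55.9 CPM. For both, the libraries with medium of AG1 were the lowest and those with medium of PC the highest in each condition, and the groups overlapped. C2 was 62.0, 155 and 144 CPM with resting medium and 116, 178 and 150 CPM with STING-MSC-CM, SERPING1 36.6, 38.0 and 62.6 CPM and 54.8, 56.2 and 101 CPM, and CFB 1.81, 4.17 and 3.56 CPM and 4.18, 4.06 and 5.51 CPM. With the donor block C1QC and SERPING1 had adjusted p of 0.0638 and 0.0678 against resting medium.

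Of the 7 genes, 6 were higher with STING-MSC-CM than with resting MSC-CM in all 3 donors (18.9% of all genes), with CFB the exception, and 1 had groups that did not overlap (5.64% of all genes in that direction). By edgeR without a block 0 were called (0% of all genes), by DESeq2 0, and 2 had an unadjusted p under 0.05 (2.29% of all genes in that direction). With the block 2 were called higher, where 0.279% of all genes were, and 6 had an unadjusted p under 0.05 (7.24% of all genes). Against TLR-MSC-CM 6 were higher in all 3 donors (14.5% of all genes), with SERPING1 the exception, and 2 had groups that did not overlap (4.74%). There 0 were called without the block (0% of all genes) or by DESeq2, 2 had an unadjusted p under 0.05 (2.78% of all genes in that direction) and 2 were called with the block (1.42% of all genes in that direction), where 5 had an unadjusted p under 0.05 (8.84%).

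The comparisons against resting and against TLR-MSC-CM share the libraries with STING-MSC-CM. MX1 was 139, 542 and 329 CPM with resting medium of AG1, ORC and PC and 256, 410 and 263 CPM with STING-MSC-CM, higher for AG1 and lower for ORC and PC. The macrophage markers summed to 15925 to 17352 CPM with resting MSC-CM and 16483 to 18549 CPM with STING-MSC-CM, and the T cell markers to 281 to 324 CPM and 269 to 299 CPM. Their part in the differences was not tested. With TLR-MSC-CM the 7 genes were all above resting medium for AG1, all below it for ORC and 6 of 7 above it for PC, and 0 had an unadjusted p under 0.05 (2.13% of all genes) or were called by edgeR or DESeq2 (0% of all genes by edgeR).

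Whether the change with a medium differed between cell types was tested by the interaction over the 27 joint cell libraries. Of the 7 genes, 0 were called in any of the 6 contrasts by edgeR or DESeq2 (0% of all genes by edgeR), and 0 had an unadjusted p under 0.05, where 1.72%, 2.64% and 3.99% of all genes had for TLR-MSC-CM and 1.74%, 3.59% and 4.38% for STING-MSC-CM. The smallest of these p-values was that of C1R with TLR-MSC-CM, with a log2 change that differed by -0.77 (SE 0.47, unadjusted p = 0.113, adjusted p = 1.00, edgeR) between macrophages and synoviocytes (the first minus the second). The standard errors leave room for differences of the size of the changes themselves, and these tests do not show that the cell types responded alike.

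The cytokines alone and no addition had 1 library each per cell type, so those values have no replicate check and no test. In chondrocytes C1R was 208 CPM with no addition and 64.6 CPM with IL-1β and TNF-α, a 3.21-fold lower value. C1S was 217 and 39.3 CPM (5.51-fold lower), C2 1.97 and 0.152 CPM (51 and 6 counts, 13.0-fold lower), SERPING1 77.4 and 38.4 CPM (2.01-fold lower) and CFB 205 and 111 CPM (1.84-fold lower). Thus 4 of 5 genes were at least 2-fold lower with the cytokines, where 8.07% of all genes were.

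In synoviocytes C1R was 266 and 123 CPM (2.16-fold lower with the cytokines) and C1S 267 and 93.1 CPM (2.87-fold lower), while SERPING1 was 45.9 and 32.5 CPM, CFB 11.4 and 12 CPM and C2 15 and 10 counts. There 2 of 5 genes were at least 2-fold lower (4.1% of all genes). In macrophages 0 of 7 genes were (1.71% of all genes), and the ratios of cytokines to no addition ran from 0.988 for C2 to 1.20 for C1QB. The chondrocyte markers summed to 766 CPM in chondrocytes with no addition and 164 CPM with the cytokines, and the part of that in these values was not tested.

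**Figure D5:**
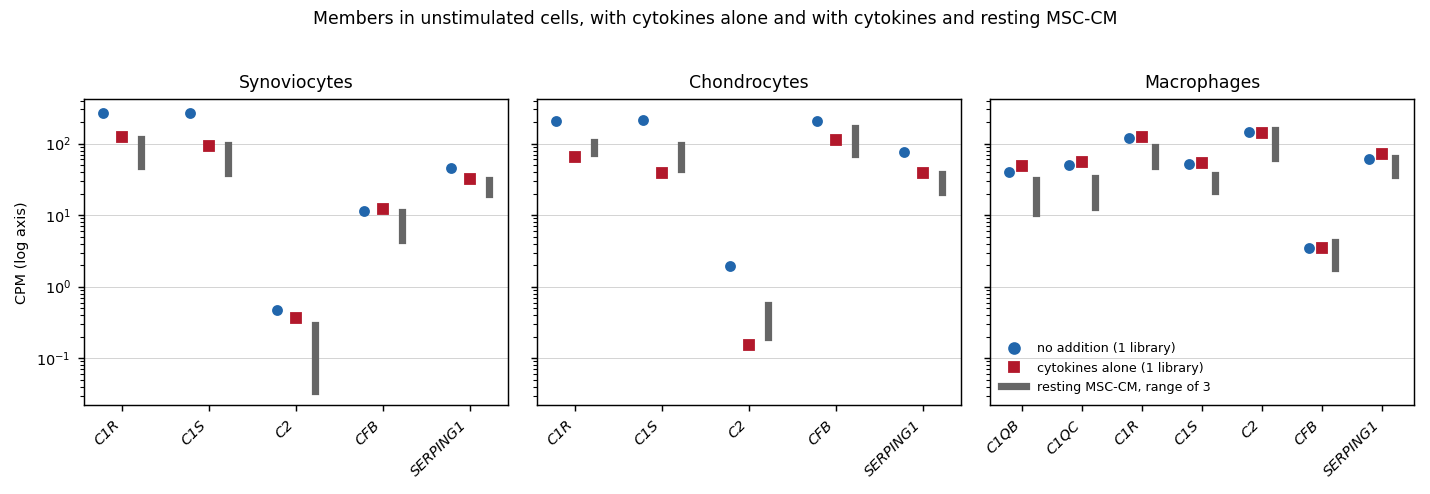
CPM (log axis) of each gene in the library with no addition (circles), the library with cytokines alone (squares) and the range of 3 libraries with cytokines and resting MSC-CM (bars), by joint cell type. C1R and C1S are lower with cytokines than with no addition in synoviocytes and chondrocytes, while in macrophages the 2 single libraries lie close together and mostly above the bars.

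Beside the cytokines alone, resting MSC-CM of 3 donors gave a range. In macrophages the cytokine library lay above that range for 5 of 7 genes (21.9% of all genes), with C1QB at 48.6 CPM against 10.8 to 30.6 CPM, C1QC at 55.8 against 13.2 to 32.8 CPM, C1R at 122 against 48.1 to 90.9 CPM, C1S at 53.6 against 22.0 to 36.9 CPM and SERPING1 at 71.1 against 36.6 to 62.6 CPM. C2 and CFB lay inside it. In synoviocytes 4 of 5 genes lay above it (24.2% of all genes), with SERPING1, at 32.5 against 19.5 to 31.2 CPM, nearest to it, and C1S lay inside. For all 4 the 95% interval of the count overlapped that of the highest resting library, and C2 had 10 counts against at most 8. In chondrocytes C1R, C1S and C2 lay below it (3 of 5, 22.9% of all genes), SERPING1 above it (1 of 5, 30% of all genes) and CFB inside it. There the intervals of C2 (6 counts against at least 6) and of SERPING1 (38.4 against at most 37.3 CPM) overlapped those of the nearest resting library.

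The other genes of the pathway were counted from a written list, of which 39 were in the tables. In the comparisons of agonists and of media 0 of the 23 to 29 tested were called in any cell type by edgeR or DESeq2. There edgeR called 0% of all genes. At an unadjusted p under 0.05 the largest count was 4 higher and 2 lower of 23, in synoviocytes with TLR-MSC-CM, where 4.94% of all genes were higher and 5.11% lower. Between cell types in resting MSC-CM, of 30 tested, 11 were higher and 8 lower in macrophages than in synoviocytes (36.6% and 35.1% of all genes), and 14 higher and 8 lower than in chondrocytes (36.6% and 34.9% of all genes).

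Genes higher in macrophages than in both other cell types included receptors and 1 activator, and not all are named here. ITGAX and ITGB2, the chains of complement receptor 4, were 3128 to 3431 CPM and 596 to 731 CPM in macrophages and at most 3.39 and 0.275 CPM in the other joint cells. The anaphylatoxin receptors C5AR1 and C3AR1 were 310 to 395 CPM and 75.4 to 215 CPM against at most 0.0652 CPM. Properdin (CFP), which stabilises the alternative pathway convertase, was 167 to 324 CPM against at most 0.595 CPM. Those lower in macrophages included clusterin (CLU), an inhibitor of the terminal complex, and the lectin pathway protease MASP1. CLU was at 0.744 to 1.40 CPM against 1891 to 3742 CPM in synoviocytes and 3414 to 5323 CPM in chondrocytes. MASP1 was at 0 counts against 116 to 258 CPM and 252 to 279 CPM. All of these passed the test in both comparisons (edgeR adjusted p of at most 7.29e-07). For C5AR1, C3AR1 and MASP1, at or below the floor in the lower group, the test adds nothing to those levels.

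Between chondrocytes and synoviocytes 3 of 30 were higher and 7 lower, where 8.31% and 9.84% of all genes were. Only some of them are named here. Over the 30 tested the log2 differences ran from -5.22 to 4.13, beyond those of the genes named. C7, a part of the terminal complex, was higher in chondrocytes by 1.21 on the log2 scale (SE 0.19, adjusted p = 0.00135), and the collectin COLEC12 (-2.71, SE 0.39, adjusted p = 9.67e-04), the factor B protease CFD (-2.49, SE 0.70, adjusted p = 0.0323) and protein S (PROS1), which binds C4b-binding protein, (-1.74, SE 0.23, adjusted p = 5.09e-04, edgeR) were lower.

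The genes most like each member were ranked by Pearson's r of log2(CPM + 1) across libraries, as a description with no test, since libraries share donors and conditions. Over the 12 MSC libraries C2 was most like LY6E (r = 0.975), GINM1 (0.972) and IFI27 (0.965), and C1R most like AOX1 (0.954), TNFSF10 (0.952) and IFI27 (0.936). LY6E, IFI27 and TNFSF10 are known interferon-induced genes. SERPING1 was most like MOXD1 (0.924), XAB2 (0.920) and IRF2 (0.919), and CFB most like C2H1orf159 (0.931), ETV7 (0.921) and SLC15A3 (0.908). Among the members themselves C1R ran with SERPING1 (0.961) and C2 (0.96), and CFB less closely (0.654 with C1R).

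Over the 33 joint cell libraries the same measure mostly followed cell type. C1QB and C1QC ran together (r = 0.999) and were both most like ENSECAG00000006663 and CLEC1A, C2 was most like SLAMF8 (0.996), and CFB most like ATP8B3 (0.984), PRDM16 (0.984) and MMP16 (0.982). C1R and C1S had lower highest values, GAA for C1R (0.879) and PIGS for C1S (0.892), and their own r was 0.888.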

How the data were processed

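Bulk RNA was sequenced from 45 libraries, 12 of MSC and 11 of each joint cell type. The authors trimmed reads with cutadapt 1.12, aligned them with STAR to EquCab3.0 and counted them per gene with HTSeq 0.11.0, per the submitters' processing notes, and deposited raw counts per gene in one table for MSC and one for joint cells. The 41 largest counts are rounded there to 3 significant digits, none of them of a member (largest count 15050). All columns were mapped to samples by their labels.

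Levels are CPM of the library total. Each comparison was fitted across all genes whose counts summed to 10 or more in the fitted libraries, by edgeR 4.0.16 (TMM, glmQLFit, glmQLFTest), in R 4.3.3, with Benjamini-Hochberg adjustment and a threshold of 0.05. MSC were fitted over 9 libraries (12 for CpG), each joint cell type over 9 and the cell types over 9 with resting MSC-CM. Members were also compared by two-sided exact permutation tests of log2(CPM + 1). Scripts were tested on simulated data. Alternatives were median ratio factors, other filters, DESeq2 1.42.0, the MSC donor as a block and leaving out each library.

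The labels give the MSC donor of each MSC library and of each library with an MSC-CM, which pairs these across conditions. Titles of the 6 libraries without MSC-CM also carry a donor name, which was not used. The correlation of deviations from group means between libraries of the same donor had a median of 0.742 for MSC, of 0.0129 for synoviocytes, of 0.349 for chondrocytes and of 0.147 for macrophages. Genes lacking a symbol in the tables were not searched by sequence. Gene neighbours come from RefSeq's TB-T2T table, a build other than that of the counts, so no coordinates are given.

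The genes, the lists and the tests were chosen with earlier results of these data known. All members are named with their levels, and fold changes with SE and p are given for members with an unadjusted p under 0.05 (others only where a comparison of cell types or an interaction is described). Other complement genes are given as counts, and only some of those with an adjusted p under 0.05 are named. The 3 genes most like a member need a mean of 1 CPM. Nothing in the labels says that libraries of 1 joint cell condition came from separate cultures of separate horses.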

Additional observations from a re-analysis of the deposited data

How the results depend on the processing

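Counts of members with an adjusted p under 0.05 moved by over 1.5 times with the processing in 3 comparisons. For the STING agonist against untreated MSC, DESeq2 called 1 member (C2) where edgeR called 0. For macrophages with STING-MSC-CM, the replicate block by MSC donor called 2 members (C1R and C1S) against resting MSC-CM and 2 (C1R and C1S) against TLR-MSC-CM, where the fit without the block called 0. The causes were not tested. Between macrophages and chondrocytes with resting MSC-CM the count was 5, and 6 with the block or by DESeq2, which added SERPING1. In the other comparisons the block moved no count of called members by over 1.5 times. Of the member differences with an unadjusted p under 0.05, none changed direction under the alternatives run, and smaller differences were not followed one by one. Leaving out 1 library at a time gave log2 differences from 2.97 to 4.45 for C2 and 0.82 to 1.57 for SERPING1 after the STING agonist in MSC, 0.50 to 0.93 for C1R in macrophages with STING-MSC-CM against resting medium, and 3.52 to 4.12 for CFB between chondrocytes and synoviocytes. Median ratio factors moved these log2 differences by at most 0.03. With 3 libraries a group and no second horse for any joint cell type, differences between horses were not measured. C2 in synoviocytes and chondrocytes rested on 1 to 77 counts a library, and intervals or floors cover counting error only.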
